A study of Mus musculus with 7 samples.

Results

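The transcripts of 10 genes of the piRNA and small RNA pathways were followed in single mouse germinal vesicle (GV) oocytes with and without Setd1b: the PIWI genes Piwil2 and Piwil4, the piRNA biogenesis genes Mael, Ddx4, Mov10l1, Tdrkh and Pld6, and the miRNA and siRNA genes Dicer1, Ago2 and Dgcr8. They were chosen by name from the 33437 transcripts of the oocyte table. For 7 of them the table had a transcript of that symbol on the gene's own strand, and the one with the highest mean was taken. Pld6, Ago2 and Dgcr8 had none, because their transcripts carried the symbol of a neighbouring gene, and they were located by a transcript on the same strand that shared at least 0.5 of the joint span with the annotated gene. Of the 10 genes, 9 reached 1 RPM (reads per 1000000 mapped reads) in 3 or more libraries and were tested. None of the 9 passed the test between the genotypes, while Tdrd12 and Piwil1 of the wider pathways did. Tut4 also did, but it met the limit of 1 RPM only through the Setd1b cKO libraries.

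PIWI-interacting RNAs (piRNAs) are short RNAs of germ cells that guide PIWI proteins to transposon transcripts, which are cut in the cytoplasm or silenced in the nucleus. They are made and amplified in nuage, a granular material beside mitochondria that is held together by Tudor-domain proteins and RNA helicases. miRNAs are cut from hairpins by DROSHA with DGCR8 and then by DICER1, whereas endogenous siRNAs are cut from long double-stranded RNA by DICER1 alone, and both are loaded into Argonaute proteins. In mouse oocytes the siRNA branch restrains retrotransposons and the miRNA branch has little activity, and male rather than female mice lose fertility when most piRNA genes are deleted. SETD1B is a histone H3 lysine 4 methyltransferase, and its partner CXXC1 binds unmethylated CpG sites.

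Single GV oocytes came from 21-day-old females, labelled C57BL6 (C57BL/6OlaHsd in the methods of the study). The 4 Setd1b cKO oocytes carried Setd1b floxed/floxed with Gdf9-Cre, which removes Setd1b in oocytes from early follicle growth onwards, and the 3 Setd1b WT oocytes are labelled as carrying the same floxed alleles without Cre. The methods of the study also count heterozygous, Cre-positive females as WT, so the labels were followed here with that difference unresolved. Whether oocytes came from the same female is not given in the sources used here, so the p-values measure the spread between single oocytes, part of which may be technical.

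The libraries held 8582493 to 12972366 mapped reads, so that 1 read was worth 0.0771 to 0.117 RPM and 3 reads 0.231 to 0.350 RPM. The targeted gene gave no check of the labels: the Setd1b transcript ranged from 2.68 to 16.7 RPM in the cKO oocytes and from 8.61 to 17.7 RPM in the WT oocytes (adjusted p = 0.533, limma), and a transcript on the other strand overlapped it. The 14 oocyte markers found, Ddx4 among them, each had a mean of at least 1 RPM, with a summed level of 12443 to 17216 RPM in Setd1b cKO and 18018 to 22740 RPM in WT. Without Zp3, the highest of them, these sums overlapped, at 8209 to 13649 and 13128 to 17997 RPM. Of these markers 1, Mos, itself passed the test between the genotypes (log2 fold change −1.34, adjusted p = 0.00581, limma). Of 14 granulosa and cumulus markers found, 5 had a mean of at least 1 RPM, and the list summed to 101 to 149 RPM in Setd1b cKO and 170 to 200 RPM in WT. Esr2 carried that separation: without it the sums overlapped, at 25.5 to 53.6 and 23.7 to 41.9 RPM. The theca and stroma list summed to 6.24 to 8.32 RPM in Setd1b cKO and 2.62 to 3.74 RPM in WT, through Dcn alone, without which the sums were 0.583 to 1.09 and 0.655 to 2.11 RPM, and of the 3 blood and endothelium markers found, the haemoglobin genes Hbb-bs and Hba-a1 were at 0 and Pecam1 was at 7.31 to 18.0 RPM in Setd1b cKO and 13.0 to 19.5 RPM in WT. Library measures also differed fully by genotype: 13.2% to 16.4% of mapped reads lay outside the transcripts in Setd1b cKO and 9.57% to 9.90% in WT, and the 100 highest transcripts took 23.0% to 24.0% and 26.6% to 27.9% of the reads. The part of these markers and measures in the values that follow was not tested. Setd1b cKO replicate 4 and WT replicate 3 stood apart from the other libraries on the second principal component, which held 31.0% of the variance: they scored 44.7 and 64.3, against −52.6 to 6.52 for the rest. The fold changes of the tested members, and of the further genes described other than Tnrc6a, are also given without both, a choice made after seeing the data. Since a value is a share of a library's reads, less RNA of 1 gene and more RNA of the others cannot be told apart.

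The sequences before the transcription starts show how unlike these genes are in CpG content. RefSeq promoters of GRCm38.p6 were found for 8 of the 10 genes, and the set of promoter sequences used here had no entry for Piwil2 and Ago2. Dicer1 is shown as the member with the highest RPM and Tdrkh as the one that varied least, and Tdrd12, a further piRNA gene that fell in Setd1b cKO, is shown beside them. These are annotated starts, and the oocyte table merges isoforms, so the start behind most reads of a gene was not measured. Only the bases outside the RefSeq, GENCODE and deposited transcripts are printed, 5′ to 3′ on the gene's strand, with each CpG in capitals.
Dicer1 chr12:104751957-104752202, minus strand: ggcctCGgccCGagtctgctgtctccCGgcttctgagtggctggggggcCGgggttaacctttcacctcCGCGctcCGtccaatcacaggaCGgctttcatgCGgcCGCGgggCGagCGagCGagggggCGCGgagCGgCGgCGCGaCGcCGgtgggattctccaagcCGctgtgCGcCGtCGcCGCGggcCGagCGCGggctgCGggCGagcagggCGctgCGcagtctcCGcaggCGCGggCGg
Tdrkh chr3:94412994-94413243, plus strand: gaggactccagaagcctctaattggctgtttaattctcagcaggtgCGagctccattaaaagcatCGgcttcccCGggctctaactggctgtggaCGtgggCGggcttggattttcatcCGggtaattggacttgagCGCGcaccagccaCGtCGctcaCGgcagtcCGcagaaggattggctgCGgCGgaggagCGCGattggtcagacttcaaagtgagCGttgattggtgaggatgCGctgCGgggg
Tdrd12 chr7:35537868-35537994, minus strand: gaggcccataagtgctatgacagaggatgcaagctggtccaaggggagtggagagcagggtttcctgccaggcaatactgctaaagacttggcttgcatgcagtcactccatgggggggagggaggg
The Dicer1 stretch held 39 CpG sites in 246 bases, the Tdrkh stretch 19 in 250 bases, and the Tdrd12 stretch 0 in 127 bases. Over the full 250 bases before the RefSeq start, the count was 39 for Dicer1, 36 for Dgcr8, 31 for Ddx4, 19 for Mov10l1 and Tdrkh, 18 for Mael, 14 for Pld6 and 0 for Piwil4. The Piwil4 window, the nearer of 2 to its deposited transcript, lies inside the annotated gene, so its count may not describe the gene's first start. It was 5 for Tdrd12, 17 for Tut4 and 16 for Piwil1, whose oocyte transcript starts 50868 bases from that window's start site. The Piwil1 count thus does not describe the start used in these oocytes. A link between CpG content and the calls was not tested. The median of all 32817 promoters was 6, with quartiles of 2 and 16, so 7 of the 8 members lay above the median. The median of the members was 19, against 15 for 15 further piRNA genes and 17.5 for 22 further miRNA and siRNA genes. A high count was thus not particular to the members. A search on both strands found the NF-Y box CCAAT in 7 of the 8 windows against 33.8% of all windows, and the E-box CACGTG in 4 of 8 against 6.02%. In the further piRNA genes the NF-Y box was in 5 of 15 windows and the E-box also in 5. In the further miRNA and siRNA genes they were in 7 and 2 of 22. The NRF1 core TGCGCA and the NOBOX element TAATTG each occurred in 1 member (6.42% and 7.17% of all windows), and the ETS core CCGGAA in none (12.0%). These are matches of letters in windows that also differ in base composition.

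Across all genes tested, 5.71% differed between Setd1b cKO and WT at an adjusted p under 0.05 and more than 2-fold, 6.15% had an adjusted p under 0.05, and 21.7% had an unadjusted p under 0.05. Of the 9 members tested, 0 met any of these 3 limits by limma, and voom on the recovered reads also gave 0 at an unadjusted p under 0.05. Complete separation of Setd1b cKO from WT libraries was seen in 20.3% of all genes and in 0 members. The difference was above 0 for 6 members and below 0 for 3, with a median log2 fold change of 0.10 against 0.12 for all genes. Centring each library on its median gene moved the latter to −0.03, turned Tdrkh and Pld6 below 0, and changed the split of the genes past the threshold from 683 higher and 355 lower to 458 and 531. Without the pair of outlying libraries the log2 fold change was 0.12 for Mael, 0.76 for Mov10l1, 0.03 for Tdrkh, 0.31 for Pld6, −0.17 for Dicer1 and 0.52 for Dgcr8, and those of Piwil2, Ddx4 and Ago2 stand beside their values below. In 3 members, Mael, Tdrkh and Dicer1, the 95% interval lay within 2-fold in both directions, whereas for the other 6 it did not exclude a 2-fold change.

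**Figure D1:**
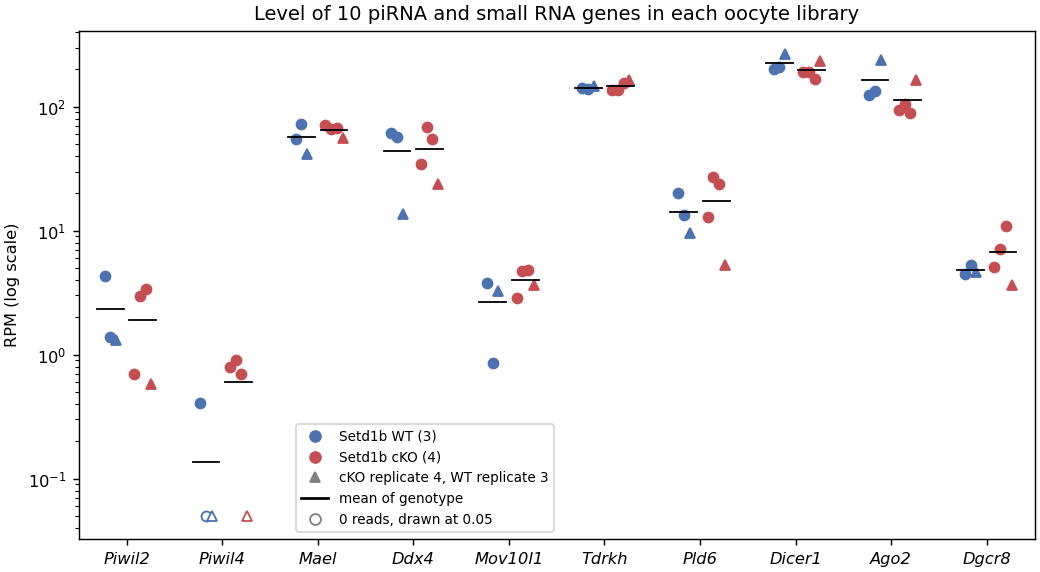
RPM on a log axis for the 10 genes in each library, with Setd1b WT in blue, Setd1b cKO in red and a line at the mean of each genotype. The genotypes overlap in every tested gene, from Piwil2 at 0.583 to 4.29 RPM to Dicer1 at 168 to 265 RPM.

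Piwil2 (chr14:70370944-70429624, minus strand) encodes a PIWI protein of fetal and postnatal germ cells that binds the first piRNAs made from transposon transcripts. Its values, in order of replicate number here and below, were 0.692, 2.96, 3.40 and 0.583 RPM for the cKO oocytes and 4.29, 1.39 and 1.31 RPM for the WT oocytes. Positions here and below are those of the deposited transcripts on GRCm38. The genotypes overlapped across a 7.37-fold range between the lowest and the highest library (log2 fold change −0.24, 95% interval −1.26 to 0.79, adjusted p = 0.828, limma), and without the pair of outlying libraries the value was −0.20. Piwil4 (chr9:14701778-14718473, minus strand) encodes the PIWI protein that enters the nucleus of fetal male germ cells and directs DNA methylation to transposons. It had 8, 11, 8 and 0 reads in the Setd1b cKO libraries and 5, 0 and 0 reads in WT, and it was too low to be tested. The ratio of the pooled reads, 27 against 5, was 4.60 with an exact 95% interval of 1.74 to 15.3, which covers counting error only, and the highest WT library lay between the lowest and the highest Setd1b cKO library. The transcript listed for Piwil4 covers only part of the annotated gene, so that the level of the whole gene was not measured.

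Mael (chr1:166201385-166238876, minus strand) encodes a nuage protein that is needed for transposon silencing and had the highest mean of the 10 genes per length. Its libraries were at 71.3, 66.6, 67.9 and 55.7 RPM in Setd1b cKO and 55.0, 72.6 and 41.9 RPM in WT. All 4 Setd1b cKO libraries lay inside the range of WT, and the difference was small (log2 fold change 0.24, interval −0.28 to 0.75, adjusted p = 0.622, limma). Ddx4 (chr13:112595419-112652310, minus strand), the germ cell RNA helicase also known as Vasa, was at 34.4, 68.2, 55.4 and 23.8 RPM in Setd1b cKO and at 61.1, 56.5 and 13.6 RPM in WT. The lowest library of each genotype was Setd1b cKO replicate 4 and WT replicate 3. Their part in the interval (0.20, −0.92 to 1.33, adjusted p = 0.870) can be measured: without both, the value was −0.21 with an interval of −0.77 to 0.35.

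Mov10l1 (chr15:88982892-89055155, plus strand) encodes the helicase that feeds precursor RNA into piRNA production. It was expressed at 2.87, 4.69, 4.79 and 3.61 RPM in Setd1b cKO and 3.81, 0.848 and 3.27 RPM in WT. WT replicate 2 was the only library under 1 RPM, and it set most of the difference of 0.55 on the log2 scale (interval −0.27 to 1.37, adjusted p = 0.439, limma), which was 0.12 without it. Pld6 (chr11:59780771-59787698, minus strand) encodes a mitochondrial nuclease that cuts piRNA precursors. It stood at 13.0, 27.3, 23.8 and 5.24 RPM in Setd1b cKO and 20.003, 13.3 and 9.54 RPM in WT, a 5.20-fold range with the extremes of both sides in the Setd1b cKO libraries (log2 fold change 0.10, interval −0.97 to 1.17, adjusted p = 0.938).

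Tdrkh (chr3:94413256-94434974, plus strand), which anchors PIWI proteins at mitochondria so that piRNAs can be trimmed, was the steadiest of the 10 genes. Its level was 136, 137, 155 and 163 RPM in Setd1b cKO and 141, 138 and 146 RPM in WT, a 1.20-fold range over all 7 libraries. The difference was 0.06 on the log2 scale (interval −0.35 to 0.47, adjusted p = 0.90, limma), and it turned to −0.10 when every library was centred on its median gene. A transcript on the other strand of Tdrkh had a mean of 1.83 RPM, and one on the other strand of Mov10l1 a mean of 0.489 RPM. The libraries were prepared from amplified cDNA, and the methods of the study describe no step that keeps the strand. Reads in the shared bases can therefore not be told apart from the gene's own.

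Dicer1 (chr12:104687735-104751956, minus strand), the nuclease of both the miRNA and the siRNA branch, was the highest of the 10 genes in RPM. It stood at 192, 190, 168 and 236 RPM in Setd1b cKO and at 201, 210 and 265 RPM in WT. The genotypes overlapped, with the highest value of each in Setd1b cKO replicate 4 and WT replicate 3 (log2 fold change −0.20, interval −0.66 to 0.26, adjusted p = 0.649, limma). Ago2 (chr15:73095844-73184934, minus strand) encodes the Argonaute that can cut its targets, and it had the largest negative difference of the 9 tested genes. It was at 93.3, 106, 89.4 and 164 RPM in Setd1b cKO and 124, 134 and 236 RPM in WT. Within each genotype the same libraries as for Dicer1 were highest, and replicate 4 of Setd1b cKO lay above 2 of the 3 WT libraries. The log2 fold change was −0.52 (interval −1.17 to 0.13, adjusted p = 0.343), and without both outlying libraries it was −0.42 with an interval of −0.83 to −0.02 (adjusted p = 0.172, unadjusted p = 0.0417). Over all alternatives its adjusted p ran from 0.0784 to 0.685. Dgcr8 (chr16:18253948-18289249, minus strand), the RNA-binding partner of DROSHA, stood at 5.05, 7.16, 10.97 and 3.61 RPM in Setd1b cKO and 4.45, 5.32 and 4.68 RPM in WT. Its 3 WT libraries lay close together and inside the wider range of the Setd1b cKO libraries (log2 fold change 0.32, interval −0.44 to 1.07, adjusted p = 0.662).

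**Figure D2:**
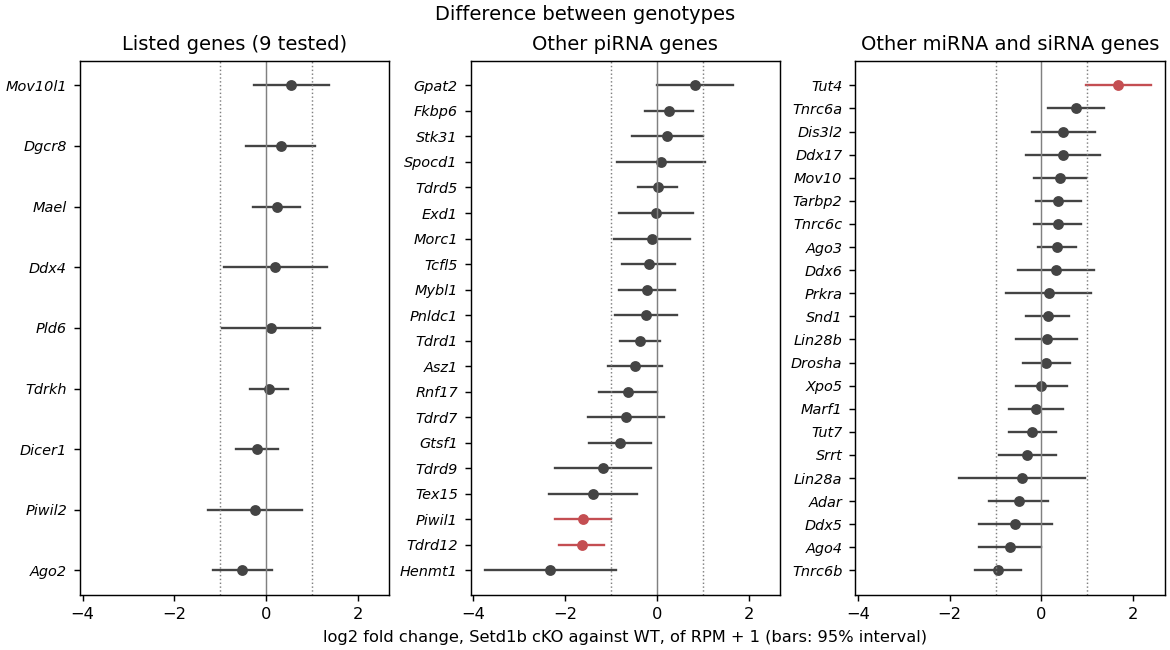
Log2 fold change of RPM + 1 in Setd1b cKO against WT with its 95% interval (bars) for the listed genes, other piRNA genes and other miRNA and siRNA genes that were tested, with dotted lines at 2-fold and genes past the threshold in red. The listed genes run from −0.52 (Ago2) to 0.55 (Mov10l1), all with intervals across 0, while Tdrd12 and Piwil1 are past the threshold, as is Tut4, which was tested only through its Setd1b cKO libraries.

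Levels can be compared between genes only per length, here as RPM per kb of the longest annotated transcript. In WT the level was 33.4 ± 9.11 (SD, n = 3) RPM per kb for Mael, 24.9 ± 0.752 for Tdrkh, 22.9 ± 3.49 for Dicer1 and 14.5 ± 8.70 for Ddx4. It was 11.9 ± 4.50 for Ago2 and 8.14 ± 3.02 for Pld6, and 1.12 ± 0.104 for Dgcr8, 0.639 ± 0.382 for Mov10l1 and 0.474 ± 0.346 for Piwil2. Piwil4 was left out of this order because its transcript covers only part of the gene. The Pld6 transcript reaches past the 3′ end of the annotated gene and shares 0.541 of the joint span with it. Its level per length may thus be overstated, and its place in this order is uncertain. Neighbours in this order lay within 1 SD of each other's range, except that Pld6 stood above Dgcr8 by more than both SDs. The 6 genes above Dgcr8 comprised 4 piRNA biogenesis genes and the miRNA and siRNA genes Dicer1 and Ago2. In Setd1b cKO the order of the means was the same except that Pld6, at 9.87 ± 5.75 (SD, n = 4), came before Ago2, at 8.20 ± 2.51, and it ran from 38.7 ± 3.99 RPM per kb for Mael to 0.388 ± 0.301 for Piwil2.

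The spread within each genotype had a common pattern in these genes. Setd1b cKO replicate 4 and WT replicate 3 were both the highest library of their genotype for Tdrkh, Dicer1 and Ago2, and both the lowest for Piwil2, Mael, Ddx4 and Pld6. That is 7 of 9 genes, while 47.5% of all genes tested had such a pattern, which was picked out after the values were seen. Ago2 lay 0.58 above the genotype mean on the log2 scale in both libraries, and Dicer1 lay 0.28 and 0.24 above it. In the opposite direction, Ddx4 lay −0.80 and −1.36 from the genotype mean, and Pld6 −1.33 and −0.48. Mov10l1 and Dgcr8 did not share the pattern.

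**Figure D3:**
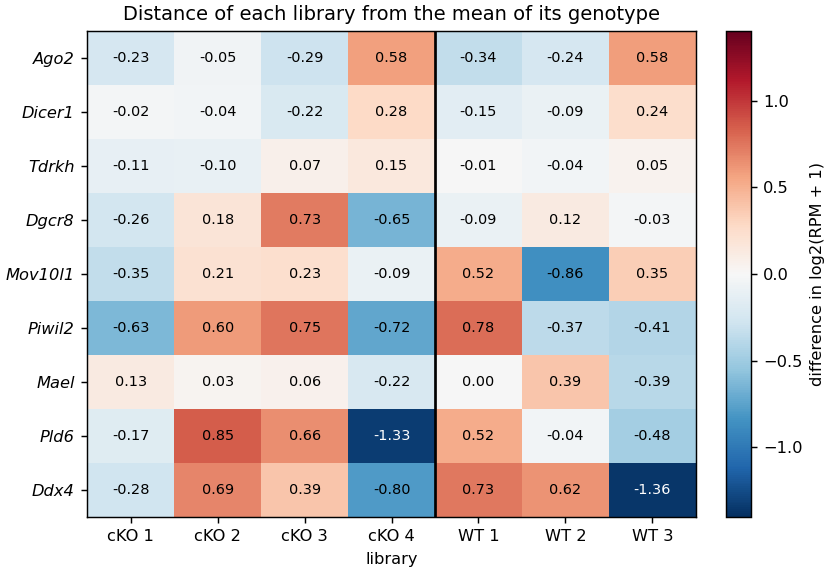
Difference in log2(RPM + 1) between each library and the mean of its genotype for the 9 tested genes, with Setd1b cKO left and WT right of the black line. Ago2 and Dicer1 are raised, and Ddx4, Pld6, Mael and Piwil2 are lowered, in both cKO 4 and WT 3.

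The wider piRNA pathway was read from 22 further genes with a transcript, of which 20 were tested. Of these, 2 (10%) fell in Setd1b cKO and 0 rose, against 5.71% of all genes past the threshold in either direction. An unadjusted p under 0.05 was found for 7 (35%, against 21.7% of all genes), and the libraries of 4 did not overlap (20%, against 20.3%). The 7 include Gpat2 (unadjusted p = 0.04997, limma), which met the limit of 1 RPM only through Setd1b cKO, where it was higher. The differences were below 0 for 15 and above 0 for 5, with a median log2 fold change of −0.30 against 0.12 for all genes. Tdrd12 (chr7:35466941-35537867, minus strand), a Tudor-domain protein with a helicase domain that acts in secondary piRNA production, was at 160, 164, 123 and 122 RPM in Setd1b cKO and 515, 457 and 368 RPM in WT. Every Setd1b cKO library lay under every WT library (log2 fold change −1.64, interval −2.12 to −1.16, adjusted p = 0.00369, limma, from 0.000146 to 0.0286 over the alternatives), and the value was −1.71 without both outlying libraries. Piwil1 (chr5:128685378-128755648, plus strand), which encodes the PIWI protein of meiotic and later male germ cells, had 3.46, 1.98, 3.83 and 3.50 RPM in Setd1b cKO and 11.1, 10.8 and 12.9 RPM in WT. These groups were also separate (log2 fold change −1.61, interval −2.22 to −0.999, adjusted p = 0.00938, from 0.00256 to 0.0469), with −1.58 without both outlying libraries. Its relative Piwil2 gave no call. The difference between the changes of Piwil1 and Piwil2 was not tested. The Piwil1 transcript of these oocytes begins 17146 bases upstream of the nearest annotated start, and a short transcript on its other strand had a mean of 1.37 RPM.

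The most abundant of the further piRNA genes was Gtsf1, a zinc-finger partner of PIWI proteins, which stood at 674, 502, 639 and 1031 RPM in Setd1b cKO and 1026, 935 and 1804 RPM in WT. Setd1b cKO replicate 4 reached the level of WT replicate 1, and the difference did not pass the test (log2 fold change −0.80, adjusted p = 0.157, limma). Without both outlying libraries it was −0.71 with an adjusted p of 0.0266, and without Setd1b cKO replicate 4 alone the adjusted p was 0.0444, short of 2-fold in both. These were among 3 of 22 alternatives with an adjusted p under 0.05, none of them over 2-fold, and without WT replicate 3 alone Gtsf1 was at −0.51 with an adjusted p of 0.375. Transcripts on the other strand of Gtsf1 had means of 184 and 32.3 RPM. Asz1, Tdrd1 and Stk31, 3 nuage genes of high level, had log2 fold changes of −0.48, −0.37 and 0.22 with adjusted p of 0.340, 0.308 and 0.777, and of −0.39, −0.45 and 0.03 without both outlying libraries. The Tdrd1 libraries, at 92.3 to 116 RPM in Setd1b cKO and 116 to 145 RPM in WT, did not overlap by a narrow margin.

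A further 3 genes, named after their values were seen, had differences over 2-fold in size that missed the threshold. Henmt1 encodes the methyltransferase that protects the 3′ end of piRNAs, and it stood at 14.5, 23.0, 37.4 and 2.68 RPM in Setd1b cKO and 93.3, 93.0 and 48.1 RPM in WT. The groups were separate, but the spread within Setd1b cKO was wide (log2 fold change −2.33, adjusted p = 0.0622, limma). Tex15, which acts with PIWIL4 in directing DNA methylation to transposons, had a value of −1.39 (adjusted p = 0.0858), and Tdrd9, a nuage helicase, one of −1.18 (adjusted p = 0.171). Without both outlying libraries the values were −1.96 for Henmt1, −2.01 for Tex15 and −1.74 for Tdrd9, with adjusted p of 0.00112, 0.00158 and 0.0116. Of the further piRNA genes, 5 rather than 2 were then past the threshold, while the share of all genes past it also rose, from 5.71% to 8.87%. The 3 genes depended on the libraries kept: with 1 library left out at a time, the adjusted p reached 0.209 for Henmt1, 0.287 for Tex15 and 0.425 for Tdrd9, with log2 fold changes of −2.77 to −1.65, −1.88 to −1.002 and −1.58 to −0.81. They passed the threshold in 7, 4 and 4 of 22 alternatives.

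**Figure D4:**
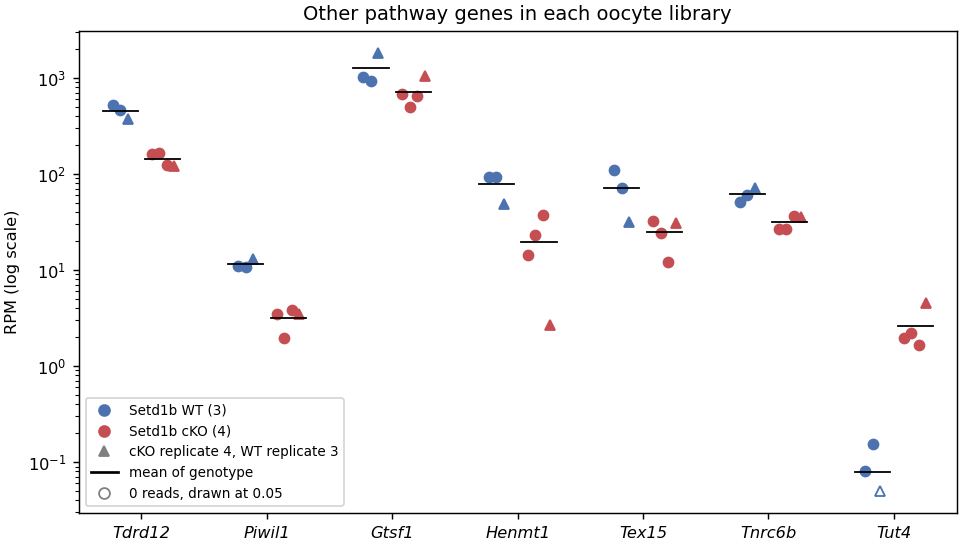
RPM on a log axis for 7 further pathway genes in each library, with Setd1b WT in blue, Setd1b cKO in red and a line at the mean of each genotype. Tdrd12, Piwil1, Henmt1 and Tnrc6b are lower in every Setd1b cKO library than in every WT library, Tut4 is higher, and Gtsf1 and Tex15 overlap, Tex15 through WT replicate 3.

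For the miRNA and siRNA branch, 23 further genes had a transcript and 22 were tested. Of these, 1 rose and 0 fell past the threshold (4.55%, against 5.71% of all genes), 4 had an unadjusted p under 0.05 (18.2%, against 21.7%) and the libraries of 5 did not overlap (22.7%, against 20.3%). Tut4 and Ago4 are in both of the last 2 counts, although each entered the test only through the genotype in which it was higher. The differences were above 0 for 13 and below 0 for 9, with the same median log2 fold change, 0.12, as all genes, so that these counts were near those of the whole table. Tut4 (chr4:108459426-108559415, plus strand) encodes a terminal uridylyltransferase that adds uridines to miRNA precursors and to mRNAs. It had 20, 27, 19 and 39 reads in Setd1b cKO and 1, 2 and 0 reads in WT, or 1.65 to 4.54 RPM against at most 0.154 RPM. It was higher in 4 of 4 Setd1b cKO libraries, with a ratio of pooled reads of 29.8 and an exact 95% interval of 9.92 to 147 that covers counting error only (log2 fold change of RPM + 1 of 1.68, adjusted p = 0.0133, limma). Tut4 entered the test only because the Setd1b cKO libraries, where it was high, reached 1 RPM, and with no filter on low values its adjusted p was 0.0615, so the call is not support of its own for a difference. Over the alternatives its adjusted p ran from 0.00432 to 0.0615, and 5 of 21 took it out of the called genes, among them leaving out WT replicate 1 (adjusted p = 0.0588) or WT replicate 2 (0.0607). The 3′ end of the Tut4 transcript shares 44 bases with a transcript on the other strand whose mean was 206 RPM. Reads in those bases cannot be told apart in libraries with no described step that keeps the strand, so the listed reads may not be the level of Tut4. Without both outlying libraries the log2 fold change was 1.398 (adjusted p = 0.017).

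Tnrc6b encodes a protein of the silencing complex that binds Argonautes, and it was lower in Setd1b cKO by less than the fold required. It stood at 26.9, 26.4, 36.7 and 35.5 RPM in Setd1b cKO and 50.6, 60.7 and 71.9 RPM in WT, without overlap (log2 fold change −0.94, interval −1.44 to −0.44, adjusted p = 0.0375, limma). Its adjusted p was 0.05 or more in 9 of 22 alternatives, with a range of 0.0119 to 0.139, among them 6 of the 7 that left out 1 library, all but the one without Setd1b cKO replicate 4 (0.0246). Without both outlying libraries the value was −0.88. Its relative Tnrc6a, named after its values were seen, lay the other way, at 11.2 to 21.1 RPM in Setd1b cKO and 7.21 to 9.82 RPM in WT, with an adjusted p of 0.137. Among the Argonautes, Ago3 was at 62.3 to 70.3 RPM in Setd1b cKO and 49.1 to 57.3 RPM in WT, and Ago4 at 0.396 to 1.15 RPM and 1.23 to 2.75 RPM. Neither overlapped between the genotypes, yet neither passed the test (log2 fold change 0.34 and −0.69, adjusted p = 0.336 and 0.224), and without both outlying libraries they were at 0.29 and −0.80. Ago4 entered the test only through the WT libraries, where it was higher, so its separation is not support of its own for a difference. Ago1 had at most 0.412 RPM and was not tested, so that Ago2 and Ago3 were the Argonautes with more than a few RPM. Tarbp2, a partner of DICER1, Ddx5, a helicase of the DROSHA complex, and Marf1, an oocyte factor that limits retrotransposon transcripts, had log2 fold changes of 0.37, −0.57 and −0.11 with adjusted p of 0.379, 0.402 and 0.866, and of 0.27, −0.57 and −0.32 without both outlying libraries. Transcripts on the other strand shared 950 bases with Tarbp2 at a mean of 102 RPM and 280 bases with Ddx5 at 49.3 RPM, levels as high as or near those of the genes themselves (means of 63.9 and 51.9 RPM), and smaller ones lay opposite Ago3 (2.84 RPM) and Stk31 (1.19 RPM).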

How the data were processed

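Single GV oocytes (4 Setd1b cKO, 3 Setd1b WT; library preparation failed for 1 further WT oocyte, per the methods of the study) were sequenced from SMARTer-amplified cDNA with single-end reads. The authors trimmed the reads, mapped them with Hisat to GRCm38, removed poorly mapping reads and counted merged isoforms of an oocyte transcriptome in SeqMonk, and their processing notes also name bcl2fastq 1.8.4 and featureCounts 1.4.4. The deposited values are log2 RPM, in which 0 reads were replaced by 0.9 read. They are shares of mapped reads, so that every gene is relative to the rest of the library, amplification from 1 cell adds noise to low genes, and intervals on reads cover counting error only. The strand setting of the counting is not given in the sources used here. The amplified cDNA went into a DNA library kit with no described step that keeps the strand. Reads in bases shared by transcripts of opposite strands can therefore not be assigned to 1 of them. All values above the floor came out as whole reads (relative tolerance 0.0001).

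From these values RPM was recovered, and the 18179 of 33437 transcripts that reached 1 RPM in 3 or more libraries were fitted as log2(RPM + 1) in limma 3.58.1 (R 4.3.3, empirical Bayes with an intensity trend, Benjamini-Hochberg over all genes tested). The threshold was an adjusted p under 0.05 together with more than a 2-fold change. A fold change on this scale understates that of low genes. A count model was not the main test because the files hold log2 RPM, and voom on the recovered reads was an alternative. Other alternatives changed the pseudocount (0.1 or 5 RPM), the filter, the scaling, the variance model, the block and the libraries. The fit was also run on simulated reads, and as the outcome is not given here, no result rests on it. Genes were named by a rule: the 10 genes, every gene of the 2 further lists past the threshold, the 5 highest in RPM of each list, PIWI and Argonaute genes, and Setd1b as the targeted gene. The members and lists were chosen with earlier results of these data known. Lengths and gene spans are from GENCODE M21 (GRCm38), and promoter sequences from RefSeq (GRCm38.p6).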

Additional observations from a re-analysis of the deposited data

How the results depend on the processing

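Across 22 alternatives and the 23 tested genes named by the rule, which includes Setd1b and leaves out Henmt1, Tex15, Tdrd9 and Tnrc6a, 476 of 502 log2 fold changes kept their direction and their side of the threshold, 17 reversed, 5 lost a call (all Tut4) and 4 gained one (all Tnrc6b, whose adjusted p was 0.05 or more in 9 others); of the 9 tested members, 0 passed the threshold in any. The values that reversed were all from genes not past the threshold. Centring on the median gene gave −0.0964 for Tdrkh and −0.0561 for Pld6, voom with median-of-ratios scaling −0.0718 for Tdrkh, quantile normalisation −0.0277 for Pld6, and library quality weights −0.035 for Ddx4. Leaving out 1 library at a time gave −0.49 to 0.15 for Piwil2, −0.47 to 0.57 for Ddx4, −0.18 to 0.54 for Pld6, −0.18 to 0.47 for Stk31 and −0.32 to 0.0339 for Marf1, and leaving out both Setd1b cKO replicate 4 and WT replicate 3, chosen after seeing the data, −0.21 for Ddx4. The further piRNA genes past the threshold numbered 2 in the report, 5 with library quality weights, 5 without both of those libraries, and 2 to 4 with 1 library left out, 4 being without Setd1b cKO replicate 4; the share of all genes past it was 5.71%, 9.63%, 8.87% and 1.56% to 7.29%, with 7.29% without that replicate. The calls gained were Henmt1, Tex15 and Tdrd9, which passed in 7, 4 and 4 of the 22 alternatives. The further miRNA and siRNA genes numbered 1 in the report, 0 with a pseudocount of 5 RPM, 0 with no filter, 0 with a mean of at least 4 RPM (which leaves Tut4 untested), 2 when centred, and 0 to 2 with 1 library left out, 0 being without WT replicate 1 or 2. Against 5.71% in the report, the share of all genes past the threshold was 3.04% with that pseudocount and 0.906% with no filter. It was 6.17% with the mean of at least 4 RPM, 5.44% when centred, and 2.09% and 1.56% without WT replicate 1 or 2. Whether the replicate numbers pair the samples is not given in the sources used here. Correlations of same-numbered deviations were 0.19, 0.29 and −0.13, which cannot decide it without those of unlike numbers. With the number as a block, Setd1b cKO replicate 4 is left without a partner. In that fit 5 piRNA and 2 miRNA and siRNA genes, and 7.72% of all genes, were past the threshold and Piwil2 was at 0.0052. Genes with an adjusted p under 0.05 in the whole table ranged from 280 without WT replicate 2 to 2325 with library quality weights, against 1118. Apart from the settings whose construction shows it, the cause was not tested.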
